A study of Mus musculus with 6 samples.

Results

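The Frizzled receptors were examined in primary lung fibroblasts of wild-type mice, to see which members of the family these cells transcribe and whether their transcripts differ after exposure to the Wnt antagonist DKK1. Members were chosen by symbol: all 10 mouse Frizzled genes, Fzd1 to Fzd10, were found among the 45706 genes of the table. Cells were grown in serum-containing medium out of enzyme-digested lungs and purified by a method not given, and were either left as controls (control, 3 samples) or exposed for 24 hours to 30 ng/ml of recombinant mouse DKK1 protein (DKK1, 3 samples). Strain, age and sex of the mice were not given in the sources used here, nor whether replicates came from separate animals, so p-values measure only the spread between these samples, which may be technical.

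Frizzleds are membrane receptors whose extracellular cysteine-rich domain binds the lipid of Wnt proteins. With the co-receptors LRP5 or LRP6 they recruit Dishevelled to the membrane and stabilise beta-catenin; with ROR or RYK and the planar polarity proteins they act without it. DKK1 binds LRP5 and LRP6 and keeps them from joining a Wnt-bound Frizzled, so it acts on the partner of the receptor and not on the Frizzled itself. ZNRF3 and RNF43 remove Frizzleds from the cell surface, and R-spondins acting through LGR receptors oppose that removal.

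The stretch by which Frizzleds engage Dishevelled, the Lys-Thr-X-X-X-Trp motif just inside the membrane, is shown first because it is the feature that every member shared although the rule did not use it. Its codons (AAAACNNNNNNNNNNTGG or AAGACNNNNNNNNNNTGG, coding strand only, in frame) were found 1 time in each of the 10 coding sequences and in 2.10% of 21429 mouse coding sequences. The windows below are GRCm38 coding sequence from GENCODE release M21, 5′ to 3′ on the coding strand, with the motif codons in capitals, for the members above 1 CPM per kilobase in every sample, except Fzd8, which is not shown.
Fzd1 (chr5:4755700-4755729, minus strand): tccggcAAGACACTGAATTCCTGGaggaag
Fzd2 (chr11:102606367-102606396, plus strand): tccggcAAGACACTGCACTCGTGGaggaag
Fzd7 (chr1:59484601-59484630, plus strand): tcgggcAAGACCCTGCAGTCATGGcgtcgc
Fzd5 (chr1:64735005-64735034, minus strand): tccggcAAGACTCTGGAGTCTTGGcggcgg
Fzd4 (chr7:89408235-89408264, plus strand): tctgccAAAACTCTTCACACGTGGcaaaag
Fzd6 (chr15:39033943-39033972, plus strand): agcaaaAAGACGTGCACAGAATGGgccggg
Fzd3 (chr14:65212101-65212130, minus strand): agcaaaAAGACATGCTTTGAATGGgccagt
In Fzd1, Fzd2 and Fzd7 the motif was followed by 51 coding bases before the stop codon. The coding tail was longer in Fzd4 (99 bases), Fzd5 (165 bases), Fzd3 (477 bases) and Fzd6 (618 bases). Fzd1, Fzd2 and Fzd7 also had the closest coding sequences of one another, with 82.7% identical aligned bases between Fzd1 and Fzd2, 78.9% between Fzd1 and Fzd7 and 78.6% between Fzd2 and Fzd7. The other 42 pairs of members lay between 61.6% and 76.8%. Of the 10 genes, 7 have their whole coding sequence in 1 exon.

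The deposited values were RSEM expected counts, which divide reads that match several genes among them. Libraries held 22565917 to 34727102 counts, and the Frizzled genes together 11021 to 17168 counts per library. Expected counts were whole numbers (within 0.01 counts) in all 6 libraries for 9 of the 10 members, the close trio included. Fzd5 was the exception: its counts were not whole in any library, but its sum with Gm38058, a gene annotated on the opposite strand, was whole in all 6, and Gm38058 took 0.169% to 0.494% of that sum. Whether the counting used strand is not given, so the Fzd5 value may hold reads of the opposite strand and is uncertain to that extent. All 8 fibroblast markers were detected, at a summed 12587 to 15061 CPM (counts per 1000000 counts of the library). The libraries of replicate 3 stood apart in both groups: endothelial markers summed to 62.9 and 62.8 CPM there and to 20.5 to 28.6 CPM in the other 4 libraries, epithelial markers to 126 and 126 CPM against at most 47.4 CPM in the others, and mesothelial markers to 28.1 and 31.6 CPM against 9.73 to 10.9 CPM. Leukocyte and macrophage markers were also highest in replicate 3 of each group. Of the epithelial list, Scgb1a1 and Krt5 had at most 3 counts in any library. Results for called members are therefore also given without these libraries. In bulk samples, fewer cells of a type and less RNA per cell cannot be told apart.

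The Frizzled genes differed widely in level, with 3 of them well above the others. Levels of different genes are compared as CPM per kilobase of transcript. Fzd7 led, at 37.0 ± 2.12 CPM per kilobase in control and 36.2 ± 1.23 after DKK1 (SD, n = 3 each), and was above every other member in all 6 samples. Fzd1 followed with 25.7 ± 1.31 in control and 29.2 ± 0.733 after DKK1, and Fzd2 with 26.1 ± 1.58 and 25.7 ± 1.52 CPM per kilobase. The ranges of Fzd1 and Fzd2 overlapped over the 6 samples, so their order was not beyond the spread. These 3 close relatives made up 80.0% ± 0.404 of the summed Frizzled level in control and 81.2% ± 0.50 after DKK1 (SD, n = 3 each).

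**Figure D1:**
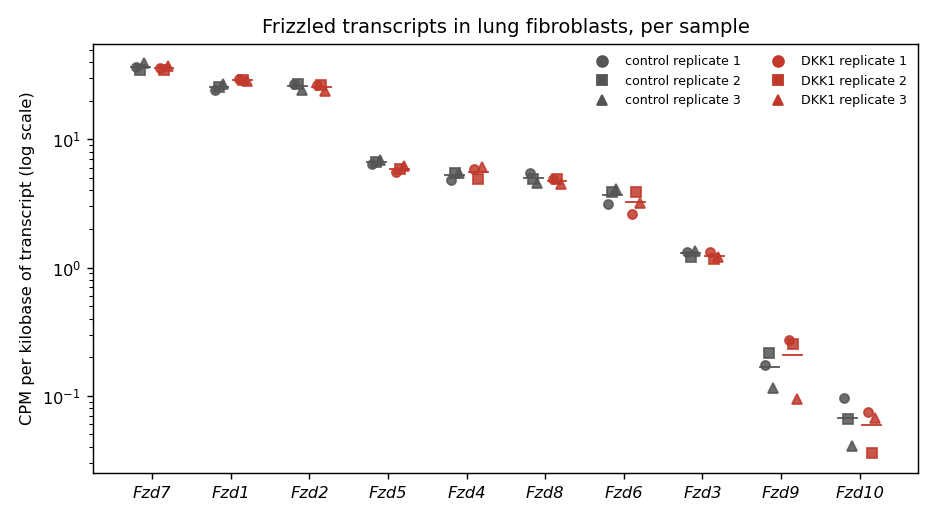
Level of each Frizzled gene in each sample, in CPM per kilobase of transcript on a log scale, control in grey and DKK1 in red, with a line at each group's mean. Fzd7, Fzd1 and Fzd2 sit above 20 CPM per kilobase in every sample, and Fzd9 and Fzd10 below 1.

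A middle tier lay well below. Fzd5, at 6.71 ± 0.239 CPM per kilobase in control, Fzd4, the receptor for norrin, at 5.27 ± 0.364, and Fzd8 at 4.99 ± 0.454 (SD, n = 3 each) overlapped with their neighbours in this order. Fzd6, at 3.72 ± 0.507, was below Fzd8 and above Fzd3, at 1.29 ± 0.0754, in all 6 samples without overlap. Fzd3 and Fzd6 are the members best known for planar cell polarity. Fzd9 stood at 0.168 ± 0.0505 CPM per kilobase, with 5 to 20 counts per library. Fzd10 had 3 to 7 counts per library, near the floor of 3 counts. The order among Fzd5, Fzd4 and Fzd8 changed with the length used: it was Fzd4, Fzd8, Fzd5 with the longest transcript and Fzd4, Fzd5, Fzd8 with the coding length.

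The summed Frizzled level was nearly the same in both groups. It was 110, 110 and 113 CPM per kilobase in control replicates 1 to 3 and 113, 112 and 111 after DKK1. The means were 111 ± 1.83 and 112 ± 1.09 CPM per kilobase (SD, n = 3 each), so the groups overlapped.

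After DKK1, no Frizzled gene was called in the comparison of unpaired samples. With same-numbered samples taken as pairs, Fzd1 was called higher and Fzd5 lower, both by little. The tests used edgeR's quasi-likelihood test with Benjamini-Hochberg adjustment over 14635 genes, called at an adjusted p under 0.05, and 9 of the 10 members passed the low-count filter (Fzd10 did not). Without pairing, 0 of these 9 were called, against 0.895% of all tested genes (0.697% higher and 0.198% lower); Fzd1 and Fzd5 had an unadjusted p under 0.05, against 10.6% of all tested genes. DESeq2 without pairing also called 0 of the 10 it fitted, against 1.21% of the 23880 genes it fitted. The labels do not say that samples with the same number belong together. Their departures from the group means were correlated across genes (r = 0.27, 0.23 and 0.41 for numbers 1 to 3). The replicate number was therefore also fitted as a block, and this pairing is assumed from these same data. With the block, 2 of the 9 were called, against 9.42% of all tested genes: 1 was higher, against 4.96%, and 1 lower, against 4.46%. The median log2 fold change of the 9 tested members without the block was -0.04, and that of all tested genes -0.00091.

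Fzd1 (ENSMUSG00000044674, chr5:4753839-4758035, minus strand) is a receptor of the branch that signals through beta-catenin. It measured 102, 107 and 113 CPM in control replicates 1 to 3 and 125, 123 and 119 CPM in DKK1 replicates 1 to 3. Every DKK1 sample was above every control sample, and the DKK1 to control ratio was 1.22, 1.15 and 1.05 in pairs 1 to 3. Means were 108 ± 5.50 and 122 ± 3.08 CPM (SD, n = 3 each). The fold was 1.13 without the block, with a 95% interval of 1.06 to 1.22 (log2 fold change 0.18, SE 0.04, edgeR adjusted p = 0.136). With the block the fold was 1.14, with a 95% interval of 1.08 to 1.20 (adjusted p = 0.00512). Leaving out both libraries of replicate 3 gave a log2 fold change of 0.23 (edgeR with the block, adjusted p = 0.00161), and leaving out those of replicate 2 ended the call (log2 fold change 0.18, adjusted p = 0.093).

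Fzd5 (ENSMUSG00000045005, chr1:64730558-64737751, minus strand), whose coding tail after the motif shown above is longer than that of Fzd1, went the other way. It measured 31.7, 32.9 and 34.1 CPM in control replicates 1 to 3 and 27.5, 28.9 and 30.6 CPM in DKK1 replicates 1 to 3. The groups did not overlap, and the DKK1 to control ratios of 0.866, 0.877 and 0.900 in pairs 1 to 3 were close to one another. The fold was 0.877 without the block, with a 95% interval of 0.805 to 0.956 (log2 fold change -0.19, SE 0.05, edgeR adjusted p = 0.222). With the block it was 0.877, with a 95% interval of 0.822 to 0.937 (adjusted p = 0.0141). The call ended when a GC and length trend was also fitted and removed in each library (log2 fold change -0.14, adjusted p = 0.0878), without the libraries of replicate 2 (log2 fold change -0.18, adjusted p = 0.149), and in DESeq2 with the block (log2 fold change -0.19, adjusted p = 0.51).

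**Figure D2:**
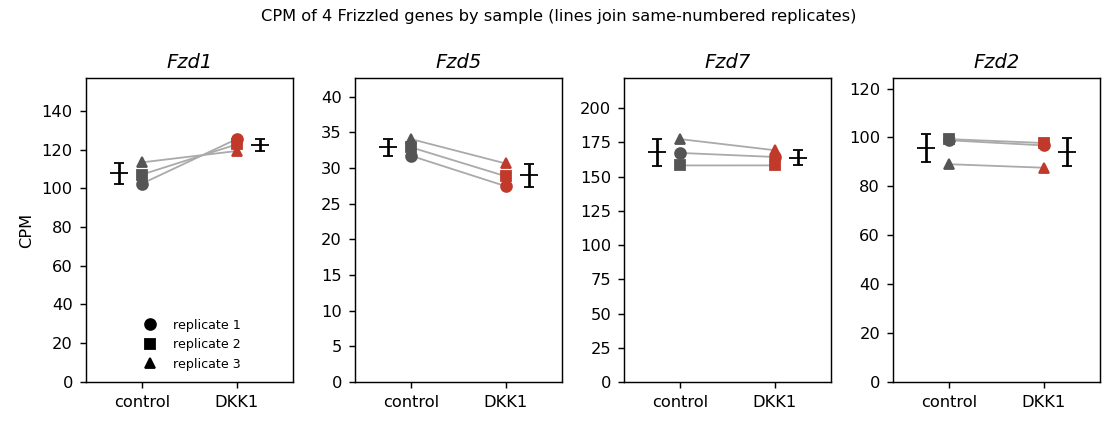
CPM of Fzd1, Fzd5, Fzd7 and Fzd2 in each sample, with lines joining same-numbered replicates and, at the sides, group means with SD (n = 3). Fzd1 is higher and Fzd5 lower after DKK1 in every pair with no overlap between groups, while the groups of Fzd7 and Fzd2 overlap.

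Because Fzd1 and Fzd5 were called in opposite directions, their ratio separated the groups. The Fzd1 to Fzd5 ratio per kilobase was 3.78, 3.80 and 3.89 in control replicates 1 to 3 and 5.34, 4.97 and 4.55 in DKK1 replicates 1 to 3. This ratio was chosen after the values of both genes were seen and carries no test. Groups that did not overlap were found for these 2 members of the 9 tested, against 16.5% of all tested genes (9.4% higher and 7.14% lower). Other measures differed between the groups in the same way: smooth muscle markers summed to 8971 to 10031 CPM in control and 7676 to 8966 CPM after DKK1, with 1 of the 5 markers called lower without the block (Myh11) and 5 of 5 with it, and mitochondrially encoded transcripts made up 1.49% to 1.55% and 1.63% to 1.70% of counts. The 6 leukocyte and macrophage markers, all tested, summed to 56.8 to 98.0 CPM in control and 72.8 to 116 CPM after DKK1, with a higher sum in each pair, but the single markers were mixed. Unpaired, 1 was called higher (Cd14); with the block 3 were called higher (Marco, Cd14 and Adgre1) and 1 lower (Csf1r), and Ptprc and Cd68 were not called. Of the 8 fibroblast markers the block fit called 2 higher and 5 lower; the unpaired fit called 0, with 3 at an unadjusted p under 0.05. Within each pair, the DKK1 library held more counts. The part of these in the results for Fzd1 and Fzd5 was not tested.

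The 250 bases before the RefSeq start of Fzd1 and Fzd5 (GRCm38.p6) are shown because these are the members called with the block. CpG dinucleotides are in capitals, 5′ to 3′ in the direction of each gene.
Fzd1 (chr5:4758217-4758466, minus strand): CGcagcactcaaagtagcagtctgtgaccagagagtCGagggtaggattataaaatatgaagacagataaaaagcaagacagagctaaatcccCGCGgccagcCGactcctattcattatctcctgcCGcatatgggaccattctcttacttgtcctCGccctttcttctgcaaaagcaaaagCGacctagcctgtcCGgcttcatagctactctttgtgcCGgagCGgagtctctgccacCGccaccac
Fzd5 (chr1:64737751-64738000, minus strand): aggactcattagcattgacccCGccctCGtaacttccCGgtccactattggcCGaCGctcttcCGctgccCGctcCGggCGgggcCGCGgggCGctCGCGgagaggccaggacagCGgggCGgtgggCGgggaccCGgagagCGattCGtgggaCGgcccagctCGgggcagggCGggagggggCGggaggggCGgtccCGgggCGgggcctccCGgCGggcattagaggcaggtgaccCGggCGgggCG
The Fzd1 stretch holds 12 CpG dinucleotides and the Fzd5 stretch 32, against a median of 6 over the 32851 mouse promoters of the RefSeq table. The other Frizzled genes in that table had 17 (Fzd7), 25 (Fzd4) and 42 (Fzd9), tested and not called, and 37 (Fzd10, not tested). In these windows Fzd1 had the fewest of the 6, and Fzd5 lay within the range of the members tested and not called. The RefSeq start of Fzd1 lies 181 bases upstream of the GENCODE start, so its window lies farther from that start, and that of Fzd5 is 1 base from it. In Fzd7 it lies 277 bases upstream, and in Fzd10, Fzd9 and Fzd4 it lies 262, 183 and 11 bases downstream. The windows are therefore not placed alike, which limits the comparison of CpG counts between these genes. Letters of the TCF/LEF motif, through which beta-catenin reaches its target genes (CTTTGAA or CTTTGAT, both strands), were searched from 250 bases before to 50 after the RefSeq start. They were in none of the 6 Frizzled promoters of the table (Fzd1, Fzd4, Fzd5, Fzd7, Fzd9 and Fzd10), and 8.65% of all promoters hold them. No match says only that these letters are not in this window.

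The other tested members were not called in either fit. Their intervals rest on the spread between these samples, which may be technical, and those with the block also on the assumed pairing. Fzd7, the most abundant, measured 167, 158 and 177 CPM in control replicates 1 to 3 and 164, 158 and 169 CPM in DKK1 replicates 1 to 3. The groups overlapped, and the fold of 0.975 had a 95% interval of 0.907 to 1.05 without the block and 0.940 to 1.01 with it (edgeR adjusted p = 0.853 and 0.47). Fzd2, the close relative of Fzd1, measured 98.8, 99.3 and 89.0 CPM in control and 96.7, 97.7 and 87.6 CPM after DKK1. Replicate 3 was the lowest in both groups, and the pair ratios of 0.979, 0.984 and 0.984 left a fold of 0.979 (95% interval with the block 0.938 to 1.02, adjusted p = 0.598). The direction of Fzd2 turned when the GC and length trend was removed (log2 fold change 0.01).

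Fzd4, the norrin receptor known from the retinal endothelium, measured 32.6, 36.8 and 36.8 CPM in control and 39.3, 32.8 and 41.2 CPM after DKK1. It was higher in pairs 1 and 3 and lower in pair 2, with a fold of 1.06 (95% interval 0.921 to 1.22, edgeR adjusted p = 0.822). Endothelial markers, whose sums were given above, were highest in the libraries of replicate 3; their part in the level of Fzd4 was not tested. Fzd8 measured 32.8, 29.1 and 27.5 CPM in control and 29.4, 29.4 and 26.7 CPM after DKK1. Its groups overlapped (fold 0.956, 95% interval 0.848 to 1.08, adjusted p = 0.838).

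Among the polarity receptors, Fzd6 varied between samples more than Fzd3. Fzd6 measured 13.2, 16.4 and 17.2 CPM in control and 11.1, 16.4 and 13.4 CPM after DKK1. It was lower in each pair, with ratios of 0.840, 0.996 and 0.776, and was not called (fold 0.871, edgeR adjusted p = 0.719; with the block 0.873, 95% interval 0.776 to 0.981, unadjusted p = 0.0262, adjusted p = 0.159). Its log2 fold change of -0.20 moved to -0.07 without DKK1 replicate 1, to -0.37 without DKK1 replicate 2 and to -0.30 without control replicate 1, and with the block to -0.31 without the libraries of replicate 2 and -0.12 without those of replicate 3. Fzd3 measured 8.73, 7.92 and 8.83 CPM in control and 8.69, 7.63 and 7.89 CPM after DKK1, with overlap between groups (fold 0.948, 95% interval 0.817 to 1.10, adjusted p = 0.852). A gene on the other strand overlaps each of these genes in the annotation. Fzd9, at 0.399, 0.495 and 0.265 CPM in control and 0.628, 0.576 and 0.217 CPM after DKK1, was too low for a difference of modest size to be detectable at this depth. Its 95% interval reached from a fold of 0.611 to 2.51 (adjusted p = 0.882).

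**Figure D3:**
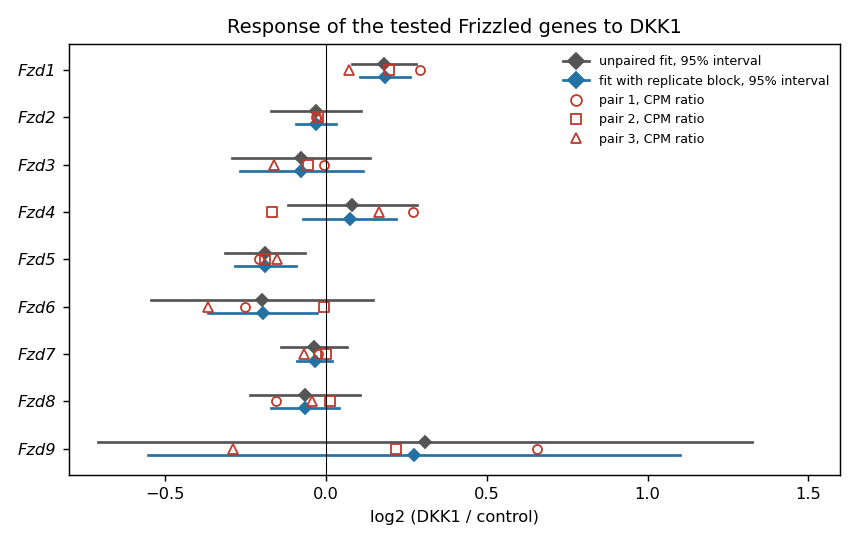
Log2 of DKK1 over control for the 9 tested Frizzled genes: open symbols are the CPM ratios of the 3 same-numbered pairs, diamonds the edgeR log2 fold changes with 95% intervals, grey without and blue with the replicate block. The intervals of Fzd1 and Fzd5 stay off 0 in both fits, that of Fzd6 with the block only, and Fzd9 has the widest interval.

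Around the receptors, the clearest differences were in secreted proteins that carry a Frizzled-type domain of their own. Apart from the Frizzled genes, 73 genes were listed by role, 55 were tested, and 3 were called without the block, all higher, against 0.895% of all tested genes; with the block 7 were called, 6 higher and 1 lower, against 9.42%. Sfrp1, Sfrp2 and Frzb, which bind Wnts through a domain like that of the receptors, were the 3 called in both fits, out of 3 tested of 5 listed. Frzb had the smallest unpaired adjusted p of the 3. It rose from 22.2, 23.6 and 22.3 CPM in control to 39.3, 36.7 and 35.2 CPM after DKK1 (log2 fold change 0.70, SE 0.06, edgeR adjusted p = 0.0022). With the block that of Sfrp1 was smaller (edgeR adjusted p = 4.11e-08, against 1.12e-06 for Frzb). Sfrp1 measured 127, 136 and 117 CPM in control and 189, 198 and 163 CPM after DKK1, so its groups were apart (log2 fold change 0.53, SE 0.08, adjusted p = 0.026). Sfrp2 stood at 1.15, 1.17 and 1.15 CPM in control and 2.27, 2.88 and 2.60 CPM after DKK1, low but apart (log2 fold change 1.15, SE 0.19, adjusted p = 0.0336). Unpaired, the call of Sfrp2 ended without any 1 of the 6 libraries (adjusted p 0.0771 to 0.148) and that of Sfrp1 without any 1 except DKK1 replicate 3 (0.0583 to 0.137), while the log2 fold changes stayed between 1.06 and 1.24 for Sfrp2 and between 0.47 and 0.61 for Sfrp1. With the block, Sfrp2 lost its call without the libraries of replicate 2 (0.0549), and Frzb and Sfrp1 kept theirs with any pair left out. The smooth muscle, leukocyte and fibroblast markers that differed between the groups, given above, differed in these same libraries, and among the fibroblast markers Dcn and Pdgfra were the 2 called higher with the block; their part in the result for these 3 genes was not tested. In CPM, the 3 decoys together with Sfrp4 and Sfrp5 summed to 141 to 160 in control and 201 to 238 after DKK1. The Frizzled genes summed to 488 to 505 and 494 to 503 CPM. Neither sum is divided by transcript length, so they compare the groups and not the 2 sets of genes.

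Among co-receptors and alternative receptors 0 of 7 tested genes (of 8 listed) were called in either fit; 1 of the 7, Lrp4, had an unadjusted p under 0.05 without the block, against 10.6% of all tested genes, and 4 had one with it (Ror1, Ptk7, Ryk and Lrp4), against 20.7%. Ror1, a receptor for Wnt5a, came nearest to a call in the block fit, lower in each pair (log2 fold change -0.26, SE 0.08, adjusted p = 0.0505). The DKK1 targets Lrp5 and Lrp6 had folds near 1, with 95% intervals of log2 fold change from -0.22 to 0.19 for Lrp5 and from -0.14 to 0.05 for Lrp6. Of the turnover genes, 9 of 11 were tested and 1 was called with the block. That is close to the 9.42% of all tested genes called with it and is no result about this list. The called gene was Rspo3, an R-spondin that protects Frizzleds from removal. Rspo3 measured 19.0, 23.6 and 21.2 CPM in control and 28.2, 30.6 and 27.7 CPM after DKK1 (log2 fold change 0.43, SE 0.08). Its edgeR adjusted p was 0.0634 unpaired and 0.000122 in the block fit, where it stayed called with any 1 pair left out; unpaired it was called by DESeq2 (adjusted p = 0.00351) and by edgeR with no low-count filter (adjusted p = 0.00359). Znrf3 and Rnf43, the ligases of that removal, were not called. Of the Frizzled partners in norrin and Wnt7 signalling 0 of 3 tested (of 4 listed) were called, where 0 had an unadjusted p under 0.05 without the block, and Smo, the Hedgehog receptor of the same class, was not called either.

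The next 3 lists each had 1 gene called with the block and 0 without it, which is close to the 9.42% of all tested genes called with the block and is no result about these lists. Of 12 Dishevelled and polarity genes, all tested, this was Dvl3. It measured 56.8, 53.9 and 53.1 CPM in control and 50.1, 46.3 and 46.6 CPM after DKK1, without overlap (log2 fold change -0.20, SE 0.05, edgeR adjusted p = 0.136 unpaired and 0.00238 in the block fit). Of the Wnt ligands, 10 of 19 were tested and Wnt11 was called higher with the block (log2 fold change 0.42, adjusted p = 0.185 unpaired and 0.00509 in the block fit); its expected counts were whole in 5 of 6 libraries. Of 10 Wnt feedback targets 9 were tested, and Nkd2, a Dishevelled-binding inhibitor, was called higher with the block (log2 fold change 0.32, adjusted p = 0.143 unpaired and 0.0126 in the block fit). The median log2 fold change of these 9 was -0.11 without the block. With the block 3 of the 9 had an unadjusted p under 0.05, against 20.7% of all tested genes. These were Nkd2 and, lower in each pair and not called, Apcdd1 and Ccnd1. Of the DKK1-binding genes, Kremen1 and Ckap4 were tested and not called. For Sfrp2, Rspo3, Dvl3, Wnt11 and Nkd2 the annotation holds an overlapping gene on the other strand, so their counts are uncertain to that extent. Without the libraries of replicate 2 the block calls of Dvl3 (log2 fold change -0.19, adjusted p = 0.0627), Wnt11 (0.41, adjusted p = 0.0719) and Nkd2 (0.34, adjusted p = 0.0994) ended, with folds about as large as before. The call of Nkd2 also ended without the libraries of replicate 3 (log2 fold change 0.24, adjusted p = 0.106). In DESeq2 with the block none of these 3 was called (adjusted p = 0.123, 0.225 and 0.274).

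**Figure D4:**
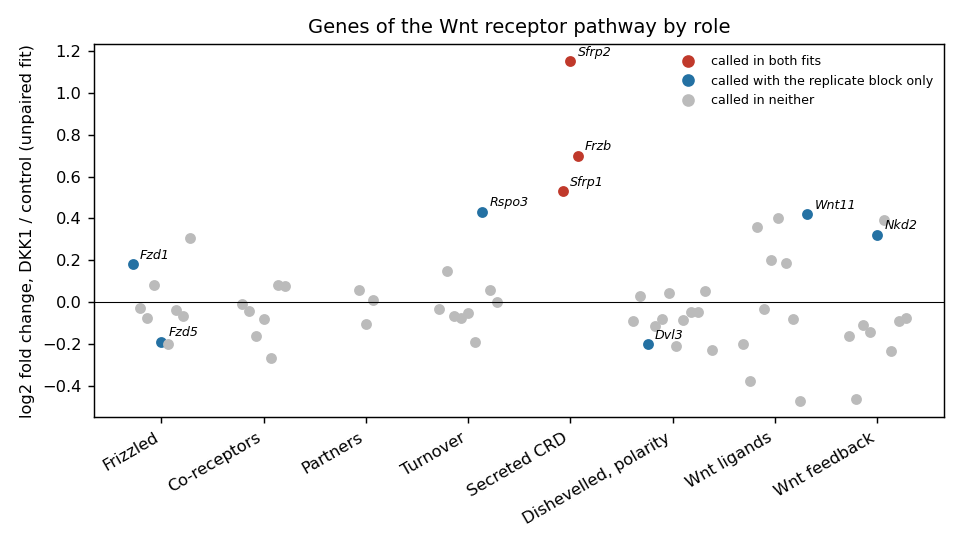
Unpaired log2 fold change, DKK1 over control, of each tested gene by role, with genes called in both fits in red, those called with the replicate block only in blue and the rest in grey. Secreted CRD marks the genes with a Frizzled-type cysteine-rich domain, whose 3 tested members lie above 0.5, while the Frizzled genes lie between -0.20 and 0.31.

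The genes whose pattern over the 6 samples was most like that of the 2 called members were sought among 9216 tested genes whose mean reached 10 CPM, by the correlation of log2(CPM + 1), as a description with no test. For Fzd1 these were Lrrn2 (r = 0.996), Nol8 (r = 0.995) and Ift57 (r = 0.993). For Fzd5 they were Sept2 (r = 0.993), Prss23 (r = 0.991) and Tspan2 (r = 0.989). With so many candidates and 6 samples, high values are reached by many genes.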

How the data were processed

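RNA was sequenced from 6 samples of mouse lung fibroblasts, 3 control and 3 treated with DKK1. The authors deposited RSEM expected counts per gene, not scaled; STAR, RSEM, edgeR 4.2.1 and the build GRCm38 (mm10) are named in the submitters' processing notes, while the annotation release and strandedness are not given in the sources used here. Symbols were matched for 98.8% of 45706 identifiers. Transcript lengths, GC contents, exons and overlaps came from GENCODE release M21 (98.7% of transcript identifiers found), promoters from the RefSeq table of GRCm38.p6.

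Expected counts were rounded and fitted in R 4.3.3 with edgeR 4.0.16: filterByExpr with a minimum count of 10 (14635 genes), TMM factors, a quasi-likelihood fit of group alone (glmQLFit, then the two-sided glmQLFTest), and Benjamini-Hochberg adjustment over all tested genes. The SE is the absolute log2 fold change over the square root of F, and 95% intervals use the test's degrees of freedom. The replicate numbers in the titles gave the block; same-numbered samples had correlations of deviations of 0.27, 0.23 and 0.41, so they were taken to pair the samples. Alternatives used DESeq2 1.42.0 and limma 3.58.1. Levels are CPM of the whole library, and CPM per kilobase of the mean length of the transcripts listed. A floor of 3 counts corresponds to 0.0864 to 0.133 CPM and covers counting error only. The fits were tested on simulated data.

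Members, gene lists and rules were chosen with earlier results of these data known. Named were all Frizzled genes, Lrp5, Lrp6, genes of the lists called in either fit, and the 3 genes most like each called Frizzled; Lrp4, Ror1, Ptk7, Ryk, Dcn, Pdgfra, Myh11, Cd14, Marco, Adgre1, Csf1r, Ptprc, Cd68, Scgb1a1, Krt5, Smo and others named outside this rule were chosen after their values were seen. Coding sequences were aligned in place of proteins, which were not used here.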

Additional observations from a re-analysis of the deposited data

How the results depend on the processing

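Fzd1 kept its direction in all 20 alternatives (log2 fold change 0.13 to 0.23). It was called in 0 of 14 fits without pairing (adjusted p 0.0592 to 0.387) and in 5 of 6 with it: the replicate block (0.183), the block after removal of the trend with GC and length (0.221), the block without replicate 1 (0.133) or replicate 3 (0.234), and DESeq2 with the block (0.18), which was added after seeing the data. Fzd5 kept its direction in all 20 (-0.23 to -0.14), and was called in 0 of 14 and in 3 of 6, with the block (-0.189) and with the block without replicate 1 (-0.177) or replicate 3 (-0.205). The block changed no call of another Frizzled gene. The number of Frizzled genes called was 0 in every fit without pairing, where 0.245% to 1.38% of all tested genes were called. With the block it was 2 of 9, against 9.42% of all tested genes. With the trend also removed it was 1 of 9, against 8.9%. DESeq2 with the block called 1 of 10, against 2.34% of the genes it fitted. With the block, 2 of 9 were called without replicate 1 (against 8.89%) and without replicate 3 (against 7.12%). Without replicate 2 it was 0 of 8, where 612 of 14586 tested genes were called.

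Directions turned for genes that were not called. Without the trend with GC and length, Fzd2 went to 0.00901 and, with the block as well, 0.0085, and ranged from -0.086 to 0.0195 with 1 sample left out. Fzd4 ranged from -0.0167 to 0.213 with the block and 1 pair left out, and Fzd8 from -0.125 to 0.0073 with 1 sample left out. Lrp5 went to 0.0388 with the trend removed and 0.0405 with the block as well, and ranged from -0.0898 to 0.0886 with 1 sample left out and up to 0.0107 with the block and 1 pair left out. The cause was not tested.

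Over all genes, 131 calls (77.9% higher) became 329 without a low-count filter, 289 in DESeq2, 1379 with the block (52.6% higher), 1303 with the block and the trend removed (51.4% higher), 558 in DESeq2 with the block, 36 to 139 with 1 sample left out, and 612 to 1312 with the block and 1 pair left out (1059 without replicate 3). Frzb was called in all 20 alternatives, Sfrp1 in 15, Sfrp2 in 12, Rspo3 in 8, Dvl3 and Wnt11 in 4 and Nkd2 in 3, none of them with a change of sign.

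With coding length only, taken from GENCODE, control levels per kilobase were 55.9 for Fzd1, 56.0 for Fzd2, 4.25 for Fzd3, 22.0 for Fzd4, 18.7 for Fzd5, 7.35 for Fzd6, 97.7 for Fzd7, 14.5 for Fzd8 and 0.125 for Fzd10, and the share of Fzd1, Fzd2 and Fzd7 was 75.7%. With the longest transcript Fzd3 was 0.667 and Fzd5 4.76, and the share was 82.0%. By both, over all 6 samples, Fzd4 came before Fzd5, and Fzd7, Fzd1 and Fzd2 led in that order.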
